A study of Zea mays with 4 samples.

Results

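Aleurone cells of the maize kernel were described at 6 days after pollination (DAP), early in the differentiation of the endosperm. They were taken as the barcodes of the 6 DAP library in which AL9 (Zm00001d012572), an aleurone transcript of unknown function, made up at least 1.5% of the unique molecular identifiers (UMIs, tags that each mark a transcript molecule). In addition, BETL9, BETL10, BETL3 and BAP2, which mark the basal endosperm transfer layer (BETL), had to stay below 1% together. Only barcodes with 500 to 7500 genes, at least 1000 UMIs and a ratio of ln(genes) to ln(UMIs) of at least 0.8 were considered. Of 4627 barcodes at 6 DAP, 3141 passed these limits and 766 were aleurone cells by this rule, which is 24.4% (exact Clopper-Pearson 95% interval, 22.9 to 25.9%). Together the 4 libraries held 17212 such barcodes. The aleurone cells were set beside the 1580 barcodes of the same library with AL9 below 0.7% and the same BETL limit, called low-AL9 cells here. The study removed clusters of embryo, nucellus, mitochondria-rich and stimulus-response cells, and no such step was taken here.

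All kernels came from wild type plants of the inbred line B73, grown in a greenhouse. The endosperm of pooled kernels was digested to protoplasts and captured in droplets for 3′ sequencing (10x Genomics), with 1 library from 6 DAP and 3 replicate libraries from 7 DAP. Because 6 DAP had 1 library, and because its cells were chosen by a measured gene, values at 6 DAP are a description without a test. The 3 libraries of 7 DAP, to which the same rule was applied, are tested, and since the labels do not say whether they came from separate plants, those p-values measure the spread between these libraries only. Intervals cover counting error only throughout.

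The aleurone is the outer cell layer of the cereal endosperm. It borders the maternal tissues of the kernel, stores oil, minerals and protein in its mature state, and releases hydrolases that mobilise the starch of the inner endosperm at germination. Its identity is known to depend on signals perceived at the surface, among them the receptor kinase CR4, and on the zinc finger factors NKD1 and NKD2. The cells inside it become the starchy endosperm (SE), those at the base become the BETL, which takes up sugars from the mother plant, and those around the embryo become the embryo-surrounding region (ESR).

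The 766 aleurone cells held 1658053 UMIs, with a median of 1780.5 UMIs and 1112 genes per cell. Low-AL9 cells held 3621197 UMIs, with medians of 1772 UMIs and 1179 genes. At an equal depth of 1000 UMIs per cell, aleurone cells had a median of 723 genes and low-AL9 cells 758. Transcripts of the organelle genomes took a median of 0.110% of UMIs in aleurone cells and 0.175% in low-AL9 cells. Between 4 and 8 barcode sequences were shared by any pair of the 4 libraries, and 5 aleurone cells carried a barcode that also occurred in a 7 DAP library.

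AL9 chose the cells, so its level is given as a description. Among aleurone cells it took a median of 2.63% of UMIs, with quartiles of 1.96% and 4.004%, and reached 21.1% in the highest cell. The lowest AL9 count in a member was 16 UMIs and the median was 53. Low-AL9 cells had a median AL9 share of 0.0747%, and 526 of them had no AL9 UMI. Another 508 barcodes (16.2%) lay between 0.7% and 1.5%, and 287 (9.14%) had BETL genes at 1% or more. Of the aleurone cells, 713 (93.1%) had no UMI of the 4 BETL genes.

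**Figure D1:**
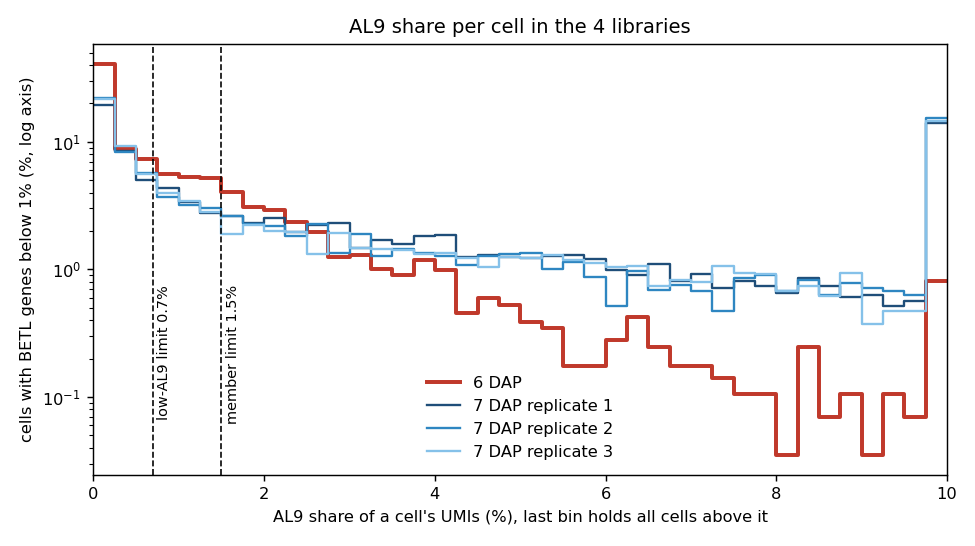
Share of barcodes with BETL genes below 1% (percent, log axis) by the AL9 share of their UMIs (percent), with 1 line for the 6 DAP library and 1 for each of the 3 libraries of 7 DAP. Dashed lines mark the limits of 0.7% and 1.5%, and no gap in the 6 DAP line separates the cells on either side of the upper limit.

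The AL9 share changed gradually across the limit. Just inside it, 99 cells with AL9 between 1.5% and 1.7% (median 1.58%) had SBT1 at 541 CPM (UMIs of a gene scaled to 1000000 UMIs of the set), VPP7 at 368 CPM, HB91 at 117 CPM and OCL1 at 156 CPM. Just outside, 122 cells between 1.3% and 1.5% (median 1.39%) had SBT1 at 471 CPM, VPP7 at 267 CPM, HB91 at 52.7 CPM and OCL1 at 102 CPM. Over all 508 cells between 0.7% and 1.5%, SBT1 stood at 385 CPM, VPP7 at 307 CPM, HB91 at 67.7 CPM and OCL1 at 107 CPM. In these 4 genes the intermediate cells were closer to aleurone cells than to low-AL9 cells. DHN1 and DRG6 were higher outside the limit than inside it, with DHN1 at 108 CPM (70.0 to 160) just inside, 218 CPM (167 to 279) just outside and 151 CPM over the intermediate cells, and DRG6 at 134, 186 and 153 CPM. By the rule they entered neither set.

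A gene was compared at 6 DAP if it averaged at least 10 CPM over both sets and had at least 10 UMIs in the higher set, and was counted as higher or lower if its CPM differed at least 2-fold. Of 9956 genes compared, 342 (3.44%) were higher in aleurone cells and 782 (7.85%) were lower, and the median log2 ratio over all genes was −0.17. With factors from the trimmed mean of M-values (TMM) in place of total UMIs, that median moved to 0.02, with 530 genes higher and 504 lower, and higher genes made up 51.3% of both in place of 30.4%. Ratios below are relative to total UMIs, except those from edgeR. At 7 DAP, edgeR's quasi-likelihood test with TMM and Benjamini-Hochberg adjustment compared 18801 genes between the same 2 sets of cells and called 947 (5.04%) higher and 1419 (7.55%) lower in aleurone cells, at an adjusted p under 0.05 and at least 2-fold. These libraries were not used to choose the 6 DAP cells. Because the scaling and the rule for a call differ, edgeR's counts and log2 values are not on the scale of those at 6 DAP.

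The label was checked against markers other than AL9. The study had picked SBT1, DHN1 and HB91 among them from these same libraries, so their direction is not independent evidence. All 5 aleurone markers that could be compared were higher in aleurone cells at 6 DAP (100% beside 3.44% over all genes), with a median log2 ratio of 2.00. SBT1, a subtilisin-like protease of the aleurone, was at 593 CPM (95% Poisson interval, 557 to 632) in aleurone cells and 47.2 CPM (40.4 to 54.9) in low-AL9 cells. HB91, a homeobox gene, was at 77.2 CPM (64.4 to 91.8) against 9.94 CPM (6.96 to 13.8). Neither pair of intervals overlapped. VPP7, which encodes a proton-pumping pyrophosphatase of the vacuole, was at 396 CPM against 98.9 CPM. OCL1, a homeodomain factor of outer cell layers, was at 112 CPM against 50.3 CPM, a log2 ratio of 1.16 (counting interval, 0.86 to 1.46). DHN1, a dehydrin that protects cells against drying, was at 129 CPM against 47.5 CPM. The listed aleurone gene Zm00001d024210 had 0 UMIs in every set at both ages, and its identity as a marker could not be assessed. The study names a transcript of this number as representative of its aleurone clusters and used its RNA pattern in kernel sections to assign them. The reason for this difference was not examined.

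In the 3 libraries of 7 DAP the same 5 markers were called higher in aleurone cells. HB91 stood at 39.7, 31.9 and 34.2 CPM in aleurone cells and at 11.4, 11.6 and 14.6 CPM in low-AL9 cells, and the libraries of the sets did not overlap (edgeR log2 1.88, SE 0.0887, adjusted p = 7.5e-98). OCL1 stood at 102, 98.5 and 100 CPM against 47.8, 51.7 and 57.3 CPM (edgeR log2 1.35, SE 0.0557, adjusted p = 5.34e-126). The 5 edgeR log2 values lay between 1.33 and 4.17, the latter for SBT1.

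Per cell these markers were sparse. With every cell thinned to 1000 UMIs, at least 1 UMI of the other 6 aleurone markers was seen in 64.2% of aleurone cells, in 58.9% of cells with AL9 between 0.7% and 1.5%, in 20.5% of low-AL9 cells and in 9.06% of cells with BETL genes at 1% or more. Zm00001d024210 is 1 of these 6 and had no UMI to add. SBT1 was seen in 34.3% of thinned aleurone cells (interval, 31.0 to 37.8%) and 4.18% of thinned low-AL9 cells. It was seen in 2.44% of thinned BETL cells, a class that should lack it, whose median was 2002 UMIs against 1780.5 in aleurone cells. Without thinning the SBT1 shares were 51.0%, 6.08% and 5.57%. VPP7 was seen in 32.0%, 9.747% and 2.09% of thinned aleurone, low-AL9 and BETL cells. HB91 was seen in 7.18%, 1.01% and 0.697%, and OCL1 in 10.4%, 5.38% and 3.14%. Each of these shares was higher in aleurone cells than in BETL cells, beyond its counting interval. AL9 itself had a UMI in 55.1% of thinned low-AL9 cells and 34.1% of thinned BETL cells.

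**Figure D2:**
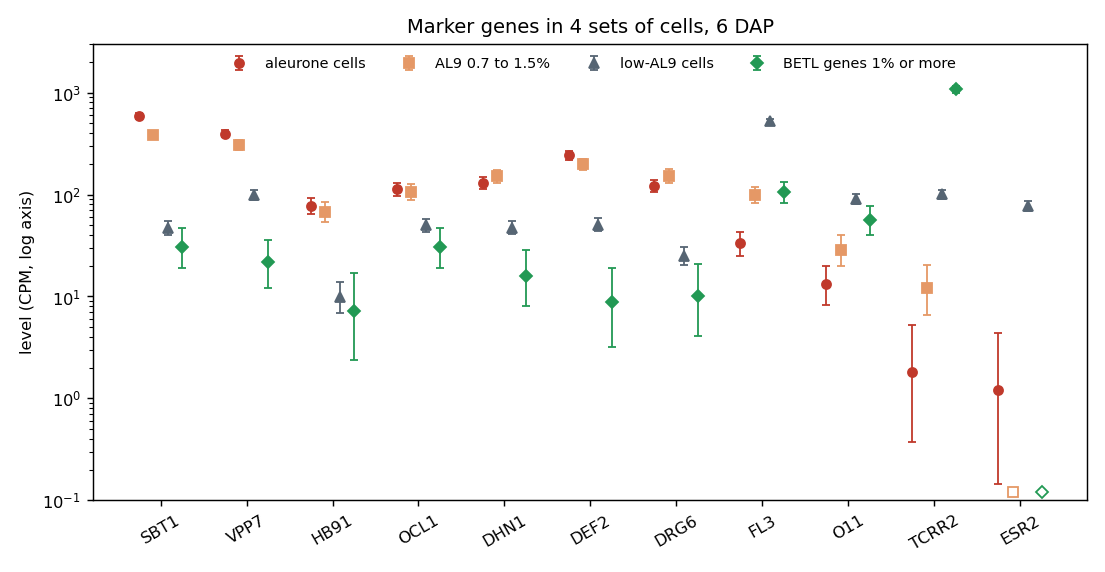
Level of 11 marker genes (CPM, log axis) in the 766 aleurone cells, the 508 cells with AL9 between 0.7% and 1.5%, the 1580 low-AL9 cells and the 287 cells with BETL genes at 1% or more, all at 6 DAP. Bars are 95% Poisson intervals and open symbols at the lower edge stand for 0 UMIs. SBT1 was at 593 CPM in aleurone cells and 47.2 CPM in low-AL9 cells, whereas FL3 was at 33.2 and 526 CPM.

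Markers of other endosperm cell types were mostly lower in aleurone cells. Of 10 BETL markers compared, which leaves out the 4 of the rule, 9 were lower and 1 was higher, with a median log2 ratio of −3.96. These were 90% and 10%, beside 7.85% and 3.44% over all genes. MRP1, the MYB-related factor that activates transfer cell genes, had 2 UMIs in aleurone cells (1.21 CPM) and 78 in low-AL9 cells (21.5 CPM), and was at 255 CPM in BETL cells. At 7 DAP the list was nearer to 0, with 6 of 11 called lower, 1 higher and a median log2 of −1.69 (edgeR). These were 54.5% and 9.09%, beside 7.55% and 5.04% over all genes. The sucrose-cleaving cell wall invertase MN1 had 1 UMI in aleurone cells and 51 in low-AL9 cells, and averaged too little to enter the comparison. The exception was SWEET4C, a hexose transporter of seed filling, at 85.04 CPM in aleurone cells, 36.2 CPM in low-AL9 cells and 242 CPM in BETL cells. At 7 DAP it was again called higher, at 69.6, 75.3 and 70.9 CPM against 34.9, 48.6 and 41.1 CPM (edgeR log2 1.20, SE 0.0609, adjusted p = 8.15e-84).

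Of 7 SE markers compared, 6 were lower at 6 DAP (85.7% beside 7.85% over all genes), with a median log2 ratio of −2.76. FL3, a factor needed for starch and storage protein filling, was at 33.2 CPM (24.99 to 43.2) in aleurone cells and 526 CPM (502 to 550) in low-AL9 cells, and was seen in 2.74% and 26.0% of thinned cells. O11, a bHLH factor of endosperm filling, was at 13.3 CPM against 90.03 CPM. DE18, an auxin synthesis gene, was at 7.24 CPM against 59.1 CPM. PDC1, pyruvate decarboxylase, and TAR1, an aminotransferase of auxin synthesis, were closer, at 410 against 861 CPM and 259 against 551 CPM. The seventh, PDK1, was at 39.8 CPM against 32.0 CPM and not past the fold. At 7 DAP edgeR called 4 of the 7 SE markers lower (57.1% beside 7.55% over all genes). FL3 was among them (89.2, 38.9 and 33.2 CPM against 656, 645 and 678 CPM, edgeR log2 −3.33, SE 0.454, adjusted p = 0.0331).

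ESR markers were rare in both sets at 6 DAP. At least 1 UMI of the 6 listed genes was seen in 13 of 766 aleurone cells (1.70%) and in 31 of 1580 low-AL9 cells (1.96%). The sums differed, at 9.05 CPM in aleurone cells and 366 CPM in low-AL9 cells, because 4 low-AL9 cells with these genes at 0.5% or more of their UMIs held 1294 of the 1327 ESR UMIs (97.5%). With those 4 cells left out, an alternative chosen after the values were seen, low-AL9 cells were at 9.14 CPM and none of the ESR markers reached the level needed for a comparison. With them, all 5 that could be compared were lower in aleurone cells (100% beside 7.85% over all genes), with a median log2 ratio of −5.06. ESR2, a CLE-type signal peptide gene, had 2 UMIs in 2 aleurone cells (1.21 CPM) and 279 UMIs in 6 low-AL9 cells (77.0 CPM). Its Poisson interval would treat the UMIs of 1 cell as independent and is not given. At 7 DAP edgeR called 5 of the 6 lower (83.3% beside 7.55% over all genes), with a median log2 of −5.04. The copies of the ESR and MEG families are alike, and how reads were divided between them was not examined. Neither of the markers of the endosperm adjacent to the scutellum, MS8 and SWEET15A, had a UMI in aleurone cells, where 3 UMIs would be 1.81 CPM.

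Among genes with a symbol or annotation, the 15 with the highest ratios at 6 DAP covered proteases, lipid handling, carbon metabolism and transcription. All 15 were higher in aleurone cells in each of the 3 libraries of 7 DAP and all 15 were called there, with edgeR log2 values between 1.88 and 4.47 and a largest adjusted p of 1.37e-74. Among them SBT1 had the highest ratio at 6 DAP, a log2 of 3.65 (counting interval, 3.42 to 3.89). It was at 607, 636 and 656 CPM in aleurone cells of 7 DAP, against 41.1, 46.8 and 52.7 CPM in low-AL9 cells.

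The group with a role in lipids included 3 lipid transfer proteins, which carry lipids across the cell wall and membranes, and an enzyme that activates fatty acids. PLT1 was at 242 CPM (219 to 267) in aleurone cells and 21.5 CPM (17.03 to 26.9) in low-AL9 cells, a log2 ratio of 3.49. LTPG1, annotated as a lipid transfer protein, was at 440 CPM against 58.5 CPM, and Zm00001d013907, annotated as a nonspecific lipid-transfer protein, was at 212 CPM against 32.6 CPM. LACS2, a long chain acyl-CoA synthetase, was at 33.8 CPM against 4.69 CPM. The list of lipid transfer proteins as a whole was split, with 3 higher and 1 lower of 7 compared. These were 42.9% and 14.3%, beside 3.44% and 7.85% over all genes. The lower gene, Zm00001d052759, is a BETL marker and was at 189 CPM in aleurone cells, 4212 CPM in low-AL9 cells and 27164 CPM in BETL cells.

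Carbon metabolism was represented by 3 of the 15 genes. PDK2, a cytosolic pyruvate, orthophosphate dikinase, was at 1650 CPM (1589 to 1713) in aleurone cells and 217 CPM (202 to 233) in low-AL9 cells. It was seen in 65.5%, 16.0% and 2.44% of thinned aleurone, low-AL9 and BETL cells. SUS1, a sucrose synthase, was at 188 CPM against 24.6 CPM, and HEX5, a hexokinase, was at 201 CPM against 29.3 CPM. A second hexokinase, HEX2, was at 113 CPM against 48.3 CPM. The glycolysis list held 3 higher and 2 lower genes of 36 compared, with a median log2 ratio of 0.06 beside −0.17 over all genes. These were 8.33% and 5.56%, beside 3.44% and 7.85% over all genes.

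Regulators among the 15 were HB91, MYB83, Zm00001d049143, annotated as an Aux/IAA factor, and Zm00001d024354, annotated as an ABI3-VP1 factor. MYB83 was at 45.2 CPM against 5.80 CPM, with 75 and 21 UMIs. Zm00001d049143 was at 38.6 CPM against 3.31 CPM, with 64 and 12 UMIs. Zm00001d024354 was at 24.1 CPM against 3.59 CPM, with 40 and 13 UMIs. The low counts gave wide intervals, and for Zm00001d024354 the log2 ratio of 2.75 had an interval of 1.82 to 3.78. At 7 DAP this gene stood at 13.5, 13.3 and 13.8 CPM against 1.45, 2.06 and 1.98 CPM (edgeR log2 3.26, SE 0.176, adjusted p = 1.37e-74).

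The remaining named genes of the 15 were Zm00001d024120, annotated as O-methyltransferase ZRP4 (257 CPM against 21.0 CPM), Zm00001d033909, annotated only as an expressed protein (1570 CPM against 163 CPM), and Zm00001d023964, annotated as a serine carboxypeptidase (315 CPM against 44.7 CPM). Without a name, Zm00001d041726 (63 against 7 UMIs) and Zm00001d052963 (45 against 7 UMIs) had the highest ratios, log2 4.30 and 3.81. Zm00001d007967, which has no annotation and was chosen after its values were seen, was at 5944 CPM (5828 to 6063) against 831.8 CPM. It was also at 2441 CPM in BETL cells, where 76.7% of thinned cells had a UMI.

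**Figure D3:**
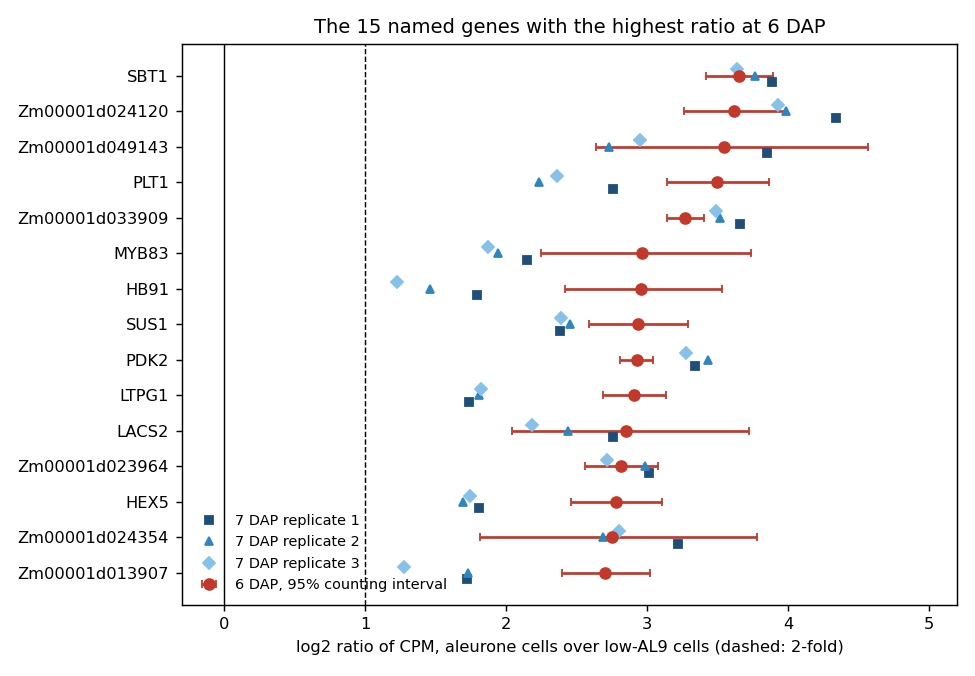
Log2 ratio of CPM in aleurone cells over low-AL9 cells for the 15 named genes with the highest ratio at 6 DAP. Circles are the 6 DAP library with 95% counting intervals, the other symbols are the 3 libraries of 7 DAP scaled to total UMIs, and the dashed line marks 2-fold. All 7 DAP symbols lie to the right of 0.

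Of the 10 named genes with the lowest ratios, 6 were genes carried by many low-AL9 cells and 4 were carried by few. The 6 were the response regulators TCRR1 and TCRR2 and gpm832 of the transfer cells, BURP3, Zm00001d018404 and Zm00001d025241, seen in 81 to 286 low-AL9 cells. TCRR2 had 3 UMIs (1.81 CPM) in 3 aleurone cells and 365 UMIs (100.8 CPM) in 174 low-AL9 cells. BURP3, which encodes a BURP domain protein, had 2 against 110 UMIs and was at 379 CPM in BETL cells, and Zm00001d025241, annotated as a farnesylated protein, had 7 against 389 UMIs and was at 590 CPM in BETL cells. With so few UMIs in aleurone cells the intervals were wide, as for TCRR1, whose log2 ratio of −5.29 had an interval of −8.35 to −3.42. The other 4 were ESR2, ESR6 and MEG14 of the ESR and DEF3, in which the 10 low-AL9 cells with most UMIs held 98.5 to 100% of the UMIs. Without the 4 cells rich in ESR transcripts the log2 ratio of MEG14 was −0.10 in place of −5.06 and that of DEF3 was −1.05 in place of −5.87. Without a name, Zm00001d000586 (1 against 324 UMIs) and Zm00001d019032 (2 against 526 UMIs) had the lowest ratios, and these UMIs came from 8 and 9 low-AL9 cells. Without the 4 cells their log2 ratios were −0.88 and −0.20. At 7 DAP, 9 of the 10 named genes were called lower, with a largest adjusted p of 0.016 (edgeR), and TCRR1 was not (edgeR log2 −2.04, SE 0.689, adjusted p = 0.147). Over all genes such concentration was uncommon, with 50% or more of the UMIs in the 10 highest cells for 10 of the 342 higher and 21 of the 782 lower genes.

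Taking all 342 genes that were higher at 6 DAP, 235 (68.7%) were also called higher at 7 DAP, and 309 had the same sign in all 3 libraries. These 235 were 24.8% of the 947 genes called higher at 7 DAP, and 46.6% of the 504 of those that were compared at 6 DAP. Of the 782 lower genes, 202 (25.8%) were called lower, which was 14.2% of the 1419 and 84.2% of the 240 that were compared at 6 DAP. Scaled to total UMIs, 768 of the 782 had the same sign in all 3 libraries. On that scale the opposite sign in all 3 was seen for 3 of the 782 and 7 of the 342. No gene of either group was called in the opposite direction by edgeR or by DESeq2. At an unadjusted p under 0.05 edgeR gave the opposite sign for 0 of the 342 and 22 of the 782, of which 18 also had an adjusted p under 0.05 but were short of 2-fold.

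Another 10 genes were fixed by name, from the text or tables of the study or for their known part in the aleurone, and 6 of them were higher at 6 DAP. The study took HP1, ELFA9, and SBT1 and DHN1 among the markers, as representative of its cell clusters in these same libraries. From them it also named WRKY8 and the marker HB91 as aleurone regulators, and DEF1 and DEF2 for their change with age in aleurone clusters. The direction of all these genes is not independent evidence. The defensins DEF1 and DEF2, small antimicrobial peptides, were at 36.8 against 8.01 CPM and 244 against 50.8 CPM. DRG6, annotated as a pathogenesis-related protein, was at 121 against 25.1 CPM. HP1, a phosphotransfer protein of cytokinin signalling that the study names for both the aleurone (AL) and SE, was at 1656 against 594 CPM, and WRKY8 was at 142 against 58.5 CPM. VP1, a factor that promotes seed maturation and aleurone pigmentation, was at 21.7 CPM (36 UMIs) against 8.28 CPM (30 UMIs), a log2 ratio of 1.39 (counting interval, 0.65 to 2.14). All 6 were called higher at 7 DAP, with a largest adjusted p of 3.45e-68 (edgeR).

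Known regulators of aleurone fate were not past the fold or too few in UMIs. NKD1 was at 54.9 CPM (44.2 to 67.4) in aleurone cells and 53.0 CPM (45.8 to 61.1) in low-AL9 cells, a log2 ratio of 0.05 with an interval of −0.33 to 0.42. NKD2 was at 18.1 CPM (12.2 to 25.8) against 28.4 CPM (23.2 to 34.5). Neither was past the fold at 6 DAP. The study ranked the regulon of NKD2, meaning the factor with its bound targets, among the most specific of an SE cluster. It also names NKD2 as a known SE regulator. At 7 DAP NKD1 stood at 32.1, 26.8 and 23.8 CPM against 40.6, 39.0 and 38.1 CPM (edgeR log2 −0.11, SE 0.0723, adjusted p = 0.169). CR4 had 0 UMIs in aleurone cells and 6 in low-AL9 cells, so the depth allowed no comparison. ELFA9, a translation elongation factor also named for both, was at 1674 against 1819 CPM.

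Of the transcription factors whose binding the study profiled, 115 were compared at 6 DAP, and 7 were higher (6.09% beside 3.44% over all genes) and 23 lower (20% beside 7.85%), with a median log2 ratio of −0.41. The study chose these factors because their expression differed between its cell clusters in these same libraries. A share above that of all genes is therefore not independent evidence at either age. The highest were MYB83 and HB91. The lowest after MRP1 were DOF36, a Dof zinc finger factor, at 4.22 against 65.4 CPM, and MYBR29, a MYB-related factor, at 6.03 against 67.1 CPM, whose levels in BETL cells were 117 and 767 CPM. At 7 DAP edgeR called 6 of 152 higher (3.95% beside 5.04%) and 21 lower (13.8% beside 7.55%).

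Genes of mitochondrial respiration encoded in the nucleus took 2.84% of UMIs in aleurone cells and 1.78% in low-AL9 cells. Of 69 compared, 10 were higher (14.5% beside 3.44% over all genes) and 0 lower. A ratio above 1 was seen in 66, and the median log2 ratio was 0.70 beside −0.17 over all genes. SUDH7 and SUDH4, subunits of succinate dehydrogenase, were at 230 against 83.1 CPM and 100.1 against 40.6 CPM. CCR2 and Zm00001d041917, annotated as subunits of the ubiquinol-cytochrome c reductase complex, were at 861 against 372 CPM and 224 against 87.0 CPM. At 7 DAP edgeR, with TMM scaling, called 43 of the 69 higher (62.3% beside 5.04%) and 0 lower, with a median log2 of 1.13. At an adjusted p under 0.05 without the fold limit 68 were higher and 0 lower. Scaled to total UMIs, the whole list stood at 27705, 28950 and 29658 CPM against 16373, 16932 and 17325 CPM at 7 DAP. At 6 DAP it stood at 28427 against 17764 CPM. Genes of the mitochondrial genome had 0 higher and 1 lower of 20 compared at 6 DAP (5% beside 7.85% over all genes, median log2 −0.66), and at 7 DAP 45 of 58 were called lower (77.6% beside 7.55%). The 7 DAP sets also differed in depth, with median UMIs of 4278, 6649 and 6978 in aleurone and 3193, 3843 and 3496 in low-AL9 cells. Organelle transcripts took a median of 0.109%, 0.0735% and 0.0597% of UMIs against 0.289%, 0.299% and 0.282%. The parts of depth and of scaling in the 7 DAP counts were not tested.

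Antioxidant enzymes had 4 higher and 0 lower genes of 23 compared (17.4% higher beside 3.44% over all genes), and 21 of the 23 had a ratio above 1. The highest was Zm00001d022278, annotated as 1-Cys peroxiredoxin PER1, a protein of dormant seeds that removes peroxides, at 56.7 CPM (45.8 to 69.4) against 12.4 CPM (9.06 to 16.6). The others were the glutathione peroxidases Zm00001d051392 and Zm00001d026154, and DAR2, a monodehydroascorbate reductase, at 571 against 273 CPM. At 7 DAP, 14 of the 23 were called higher (60.9% beside 5.04%) and 0 lower (22 higher at an adjusted p under 0.05 alone, 0 lower).

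Smaller lists were described in the same way. Defence peptides and pathogenesis-related proteins had 5 higher and 1 lower gene of 9 compared, with a median log2 ratio of 1.72. These were 55.6% and 11.1%, beside 3.44% and 7.85% over all genes. SIP1, a thaumatin-like protein, was at 82.0 against 15.5 CPM. The lower gene, Zm00001d053785, is a BETL marker annotated as a defensin-like protein, at 330 CPM in aleurone cells and 57212 CPM in BETL cells. Of 3 oil body genes compared, 2 were higher (66.7%), namely OBAP2A (38.0 against 11.3 CPM) and the oleosin Zm00001d045988 (29.6 against 12.2 CPM), which coats oil bodies. Vacuolar proton pumps had 1 higher and 1 lower gene of 14 (7.14% each), with VPP7 the higher and Zm00001d037576, a pump of the same type, at 48.9 against 122 CPM the lower. In 13 of the 14 the ratio was above 1, with a median log2 of 0.58 beside −0.17 over all genes. At 7 DAP edgeR called 3 of 14 higher (21.4% beside 5.04%) and 0 lower. At an adjusted p under 0.05 alone, 12 were higher and 1 lower there.

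Hormone lists held few members at this depth. AOC1, the allene oxide cyclase of jasmonate synthesis, was at 59.7 CPM (48.5 to 72.7) in aleurone cells and 13.5 CPM (10.0 to 17.9) in low-AL9 cells, and at 104, 107 and 110 CPM against 23.7, 23.1 and 25.2 CPM at 7 DAP. In the jasmonate synthesis list as a whole, 2 genes were higher and 1 lower of 18, with a median log2 ratio of 0.04. These were 11.1% and 5.56%, beside 3.44% and 7.85% over all genes. Ethylene synthesis had 2 higher and 1 lower of 10 (20% and 10%). The higher were SAMS1, an S-adenosylmethionine synthase (931 against 396 CPM), and ACS7, which makes the ethylene precursor (54.9 against 25.1 CPM). Auxin synthesis had 1 higher and 2 lower of 7 (14.3% and 28.6%). The higher gene was Zm00001d049077, annotated as YUCCA11, at 228 against 79.8 CPM, and the lower genes were DE18 and TAR1. Of the list for abscisic acid synthesis, only TS2 could be compared, at 197 against 69.0 CPM. It encodes a dehydrogenase best known for its part in tassel sex determination.

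Lists tied to growth and division held few genes past the fold. Beside 3.44% higher and 7.85% lower over all genes, S-phase genes had 0 higher and 9 lower of 115 compared (7.83% lower, median log2 −0.37), G2/M genes 1 higher and 23 lower of 187 (12.3%, −0.25) and histones 0 higher and 3 lower of 63 (4.76%, −0.42). Tubulins had 0 higher and 5 lower of 11 (45.5%, −0.60), and ribosomal protein genes 2 higher and 0 lower of 205 (−0.22, close to the median of all genes). Under TMM scaling 4 S-phase, 13 G2/M and 3 tubulin genes were lower. At 7 DAP, with edgeR's TMM scaling, the medians of 3 of these lists had the other sign. They were 0.06 for S-phase genes, 0.20 for histones and 0.22 for ribosomal protein genes. With TMM the S-phase median at the earlier age was −0.18. Scaled to total UMIs, the sums of these 3 lists were lower in aleurone cells in each library of 7 DAP. S-phase genes stood at 21902, 22291 and 23095 CPM against 26663, 25616 and 24997 CPM. Histones stood at 25014, 25968 and 26590 CPM against 29764, 28850 and 28374 CPM. Ribosomal protein genes stood at 128128, 137000 and 142594 CPM against 139906, 149889 and 147497 CPM. At an adjusted p under 0.05 without the fold limit, 52 S-phase genes were higher and 28 lower there, as were 40 and 8 histones and 137 and 29 ribosomal protein genes (edgeR). Tubulins had a median of −0.56 at 7 DAP, with 0 higher and 3 lower of 14 (21.4% lower beside 7.55% over all genes, edgeR). TUA5, an alpha tubulin, was at 34.4 CPM against 104 CPM, and TUA6 at 71.2 CPM against 173 CPM. Starch and zein genes had 1 higher and 4 lower of 8 compared (12.5% and 50%). Among the lower, AE1, a starch branching enzyme, was at 6.63 against 62.1 CPM and ZP27, a zein, at 3.02 against 22.4 CPM.

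Aleurone cells were not uniform when read by their AL9 share. They fell into 447 cells with AL9 from 1.5 to 3%, 230 cells from 3 to 6% and 89 cells at 6% or more, with median UMIs of 1845, 1742 and 1601. AL9 defines these ranges, and the values are a description. Of 11 of the 15 genes with the highest ratio, taken across the ranges, 3 had a higher level at 6% or more than at 1.5 to 3% with separate intervals, 1 had a lower level with separate intervals, and 7 had overlapping intervals. PLT1 stood at 170, 315 and 462 CPM in the 3 ranges, Zm00001d024120 at 190, 315 and 485 CPM, and HEX5 at 153, 224 and 415 CPM. The gene with the lower level was the lipid transfer protein Zm00001d013907, at 226, 220 and 111 CPM. SBT1 stood at 592, 643 and 462 CPM, so it did not follow AL9 upwards within the aleurone cells. Zm00001d007967 stood at 5003, 6675 and 9418 CPM.

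Gene lists also differed between the ranges, in which AL9 itself stood at 20931, 39924 and 83069 CPM. S-phase genes took 1.86%, 1.32% and 1.32% of UMIs from the lowest to the highest range, and histones 1.99%, 1.36% and 1.28%. In low-AL9 cells the S-phase list stood at 20877 CPM and the histone list at 22114 CPM, against 18645 and 19940 CPM in the lowest range. Respiration genes took 2.66%, 2.98% and 3.54%. Ribosomal protein genes took 13.4%, 12.5% and 11.2%. Each of these lists had intervals at 6% or more that were separate from those at 1.5 to 3%.

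**Figure D4:**
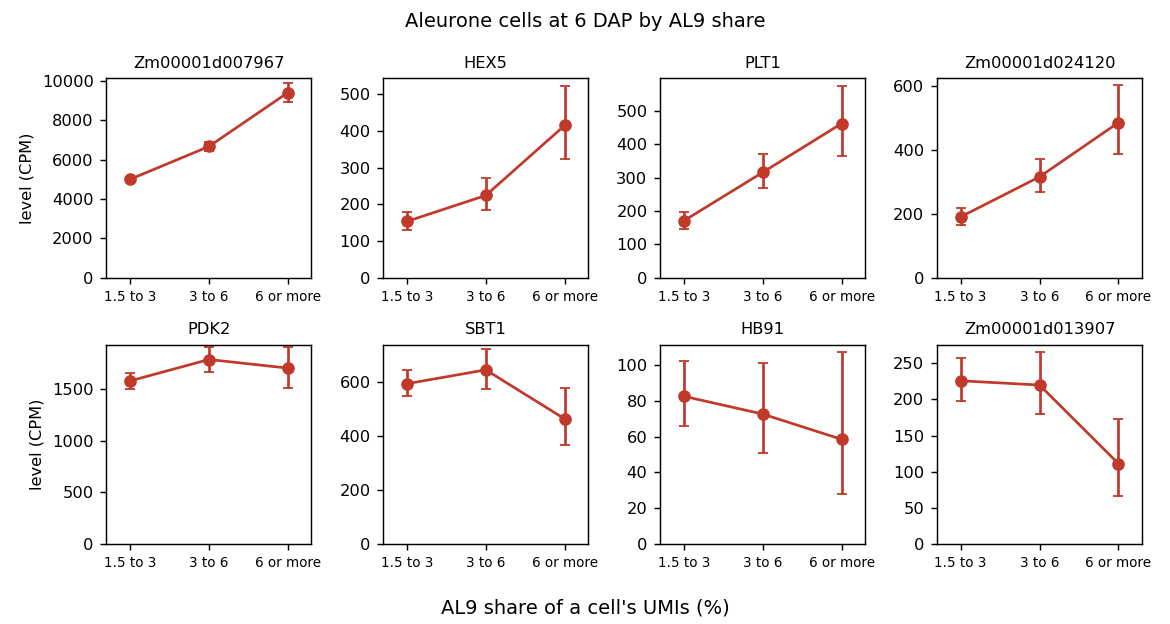
Level (CPM, linear axes from 0) of 8 genes in aleurone cells at 6 DAP with AL9 at 1.5 to 3%, 3 to 6% and 6% or more of UMIs, with 95% Poisson intervals. PLT1 stood at 170, 315 and 462 CPM, whereas SBT1 stood at 592, 643 and 462 CPM.

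At 7 DAP the same rule took 2528, 2413 and 2132 barcodes, which was 52.5%, 49.5% and 48.6% of the kept barcodes of each library, against 24.4% at 6 DAP. AL9 over all kept barcodes was at 10347 CPM at 6 DAP and at 45760, 46020 and 43854 CPM at 7 DAP, and a fixed AL9 limit therefore takes a different part of the cells at each age. With the AL9 limit raised in proportion, to 6.63%, 6.67% and 6.36%, the rule took 1028, 1081 and 1000 barcodes at 7 DAP. Median UMIs per aleurone cell were 1780.5 at 6 DAP and 4278, 6649 and 6978 at 7 DAP. Age, library, depth and the limit cannot be told apart in a comparison of 1 library with 3.

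Between the ages, a gene was counted if its CPM in aleurone cells at 6 DAP lay outside the range of the 3 libraries of 7 DAP by 2-fold or more on either side. Of 9365 genes compared, 169 (1.80%) were higher at 6 DAP and 301 (3.21%) were lower, and the median log2 ratio was 0.15. The same size rule applied to low-AL9 cells took 29 higher (0.273%) and 202 lower (1.90%) of 10626 genes. Of the 169 genes, 15 (8.88%) were also higher at 6 DAP in low-AL9 cells, beside the 0.273% over all genes there. Of the 301, 69 (22.9%) were also lower there, beside 1.90%. With the proportional AL9 limit at 7 DAP, 497 genes were higher and 202 lower at 6 DAP, and without 7 DAP replicate 1 the higher genes numbered 455.

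PLT1 stood furthest above 7 DAP among genes with a name. It was at 242 CPM (219 to 267) in aleurone cells at 6 DAP and at 67.4, 62.7 and 62.5 CPM at 7 DAP. ZNF6, named as a zinc finger gene, was at 158 CPM against 43.5, 48.1 and 39.2 CPM, and GRP3, named as a glycine-rich protein gene, at 38.6 CPM against 11.2, 10.9 and 14.4 CPM. PLT1 and GRP3 were also higher in aleurone cells than in low-AL9 cells at both ages. VPP1 and VPP4, named as further vacuolar pump genes, were at 72.98 CPM against 27.1, 23.5 and 23.7 CPM and at 163 CPM against 56.7, 55.3 and 55.9 CPM. The other genes with a name were ELFA11, a translation elongation factor, RPS21A, a ribosomal protein gene, and Zm00001d003123. The aleurone markers were not past the size rule. HB91 was just short of it, at 77.2 CPM beside 39.7, 31.9 and 34.2 CPM, whereas SBT1 was at 593 CPM beside 607, 636 and 656 CPM and OCL1 at 112 CPM beside 102, 98.5 and 100.0 CPM.

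Genes lower at 6 DAP included some defence genes and oil body genes, of which the study had picked DEF1 and DEF2 for their change between these ages. Of 10 genes of the defence list compared between ages, 3 were lower and 0 higher at 6 DAP, with a median log2 ratio of 0.33. Its sum was 10007 CPM at 6 DAP and 9721, 10327 and 9783 CPM at 7 DAP. Of 3 oil body genes compared, 3 were lower at 6 DAP. Over all genes 3.21% were lower. DEF2 was at 244 CPM at 6 DAP and 680, 668 and 695 CPM at 7 DAP, and DEF1 at 36.8 CPM beside 88.1, 83.1 and 83.8 CPM. The oleosin Zm00001d045988 was at 29.6 CPM (21.9 to 39.1) beside 194, 206 and 243 CPM, and OBAP2A at 38.0 CPM beside 82.5, 85.7 and 91.3 CPM. In low-AL9 cells this oleosin was at 12.2 CPM at 6 DAP and 36.4, 47.7 and 33.6 CPM at 7 DAP. Zm00001d007967 was at 5944 CPM beside 12517, 14065 and 14030 CPM.

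Among the 8 named genes furthest below 7 DAP, 6 were genes of the ESR or BETL, and the others were DEF3 and the oleosin. The 6 were ESR2, ESR1 and MEG14 of the ESR, and TCRR2, gpm832 and Zm00001d052759 of the BETL. ESR2 was at 1.21 CPM (2 UMIs) in aleurone cells at 6 DAP and at 33.9, 44.6 and 45.3 CPM at 7 DAP. In low-AL9 cells it was at 77.0 CPM at 6 DAP, from 6 cells, and 1982, 2158 and 2269 CPM at 7 DAP. Summed over their lists, the 6 ESR markers were at 9.05 CPM in aleurone cells at 6 DAP and 188, 220 and 208 CPM at 7 DAP, and the 11 BETL markers outside the rule at 707 CPM and 3842, 4357 and 3532 CPM. In low-AL9 cells the ESR list was at 366 CPM at 6 DAP and 7455, 6877 and 6633 CPM at 7 DAP, and the 11 BETL markers at 11200 CPM and 15085, 14320 and 16231 CPM. Of the 301 genes, 115 (38.2%) were lower in aleurone than in low-AL9 cells at 6 DAP and 9 (2.99%) were higher. Over all genes these shares were 7.85% and 3.44%. The part of transcripts from other cell types in these counts was not tested.

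**Figure D5:**
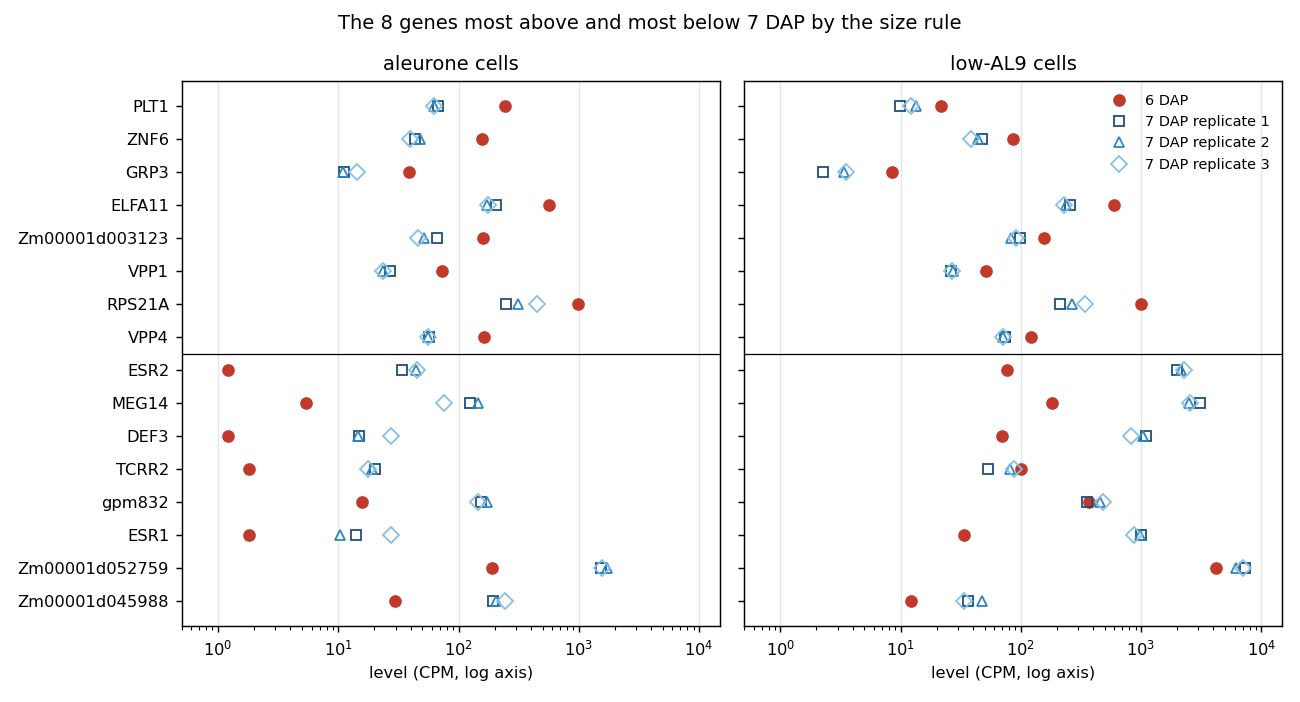
Level (CPM, log axis) of the 8 named genes furthest above and the 8 furthest below 7 DAP by the size rule, in aleurone cells (left) and low-AL9 cells (right). Filled circles are 6 DAP and open symbols the 3 libraries of 7 DAP. In aleurone cells PLT1 was at 242 CPM at 6 DAP and at 67.4, 62.7 and 62.5 CPM at 7 DAP.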

How the data were processed

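The authors deposited UMI counts per gene and barcode, made with Cell Ranger 4.0.0 per the file headers; values were not normalised. The aligner settings and genome build were not given in the sources used here. From these counts barcodes were filtered by the limits above, assigned to sets by AL9 and BETL shares, and summed per set. No doublet caller was run; an alternative left out the 5% of barcodes with most UMIs. At 6 DAP, CPM with exact Poisson intervals and a 2-fold size rule were used, with a floor of 3 UMIs per set for genes at 0. At 7 DAP, sums per library and set were tested with edgeR 4.0.16 (R 4.3.3; library as block), or DESeq2 1.42.0 as an alternative. AL9 and the 4 BETL genes of the rule were left out of all counts of genes. The fitting procedure was tested on simulated data. Thinning drew 1000 UMIs per barcode once.

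Named were the marker lists, genes from the study's text and tables or known for the aleurone, the 15 highest and 10 lowest genes with a name and at least 20 UMIs in the higher set (and at most 2 each without), up to 4 per list, and 8 per direction between ages. The members and lists were chosen with earlier results of these data known. Gene names come from the deposited feature table and the study's tables. No coordinates or sequences were used.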

Additional observations from a re-analysis of the deposited data

Results flagged for a closer look

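For 4 named genes the log2 ratio of aleurone over low-AL9 cells at 6 DAP was opposite in sign to all 3 libraries of 7 DAP, on the scale of total UMIs, and the difference was not tested. The ratio of NKD1 was 0.0498 at 6 DAP and −0.68 to −0.34 at 7 DAP. That of Zm00001d003123 was 0.0475 at 6 DAP and −0.996 to −0.593 at 7 DAP, and that of RPS21A was −0.0176 and 0.22 to 0.40. VPP4 had 0.43 at 6 DAP, with a counting interval of 0.21 to 0.65, and −0.39 to −0.35 at 7 DAP. TMM scaling moved every 6 DAP ratio up by 0.18 and put VPP4 (0.61 at 6 DAP, 0.04 at 7 DAP) and RPS21A (0.17 and 0.70) on the same side at both ages, whereas NKD1 (0.23 and −0.11) and Zm00001d003123 (0.23 and −0.35) were opposite. None of the 4 was past 2-fold at 6 DAP.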

How the results depend on the processing

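No ratio of a named gene reversed under an alternative, but the balance of higher and lower genes did turn. Higher genes were 30.4% of both at 6 DAP, 51.3% under TMM and 52.1% with a mean of at least 50 CPM, and between ages 36.0%, 71.1% with proportional AL9 limits and 56.8% without replicate 1. The share of aleurone cells stayed between 23.2% and 24.9%. At 6 DAP, genes higher and lower numbered 342 and 782, and 530 and 504 under TMM, 576 and 2462 with a mean of at least 1 CPM, and 135 and 124 with a mean of at least 50 CPM. Higher genes numbered 176 against all other barcodes with low BETL genes, and lower genes 1444 with AL9 of at least 3%. TMM also changed members higher in respiration (22) and lower among profiled transcription factors (14), G2/M genes (13), S-phase genes (4) and tubulins (3). Without the 4 low-AL9 cells rich in ESR transcripts, chosen after seeing the data, 341 genes were higher and 769 lower, and 0 ESR markers were lower in place of 5.

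At 7 DAP, leaving out a replicate gave 957 to 1085 genes higher and 1456 to 1630 lower. Without the library block 953 were higher and 1438 lower. Between ages, genes higher at 6 DAP numbered 86 under TMM, 357 with a mean of at least 1 CPM, 497 with proportional AL9 limits, and 186 to 455 without a replicate, the last without replicate 1. Genes lower numbered 715 with a mean of at least 1 CPM and 305 to 346 without a replicate. The cause of these differences was not tested. Of 1582 alternative values of 122 named genes at 6 DAP, 170 were no longer past the fold. Of 959 for 137 genes at 7 DAP, 39 lost and 24 gained the call. No paired analysis was possible because 6 DAP had 1 replicate, as far as the ages are concerned, whereas the sets of 7 DAP were paired by library. With 1658053 UMIs in aleurone cells, a gene with 0 UMIs may be at up to 1.81 CPM.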

Other observations

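Lists not described above are given beside the shares over all genes at 6 DAP, 3.44% higher and 7.85% lower. Heat shock proteins had 0 higher and 3 lower of 32 compared (9.38% lower beside 7.85% over all genes, median log2 −0.27). At 7 DAP edgeR called 0 of 35 higher and 6 lower (17.1% lower beside 7.55% over all genes). At an adjusted p under 0.05 alone, 6 were higher and 23 lower there. Glutathione transferases, which conjugate toxic compounds, had 2 higher and 0 lower of 16 at 6 DAP (12.5% higher). At 7 DAP edgeR called 5 higher and 1 lower of 26 (19.2% and 3.85%, beside 5.04% and 7.55% over all genes). Auxin response factors had 2 higher and 4 lower of 12 at 6 DAP (16.7% and 33.3%). At 7 DAP edgeR called 1 higher and 2 lower of 28 (3.57% and 7.14%). The values that follow are from 6 DAP. ARFTF11 was at 34.4 CPM in aleurone cells and 13.5 CPM in low-AL9 cells, and ARFTF18 at 5.43 CPM and 17.4 CPM. Zm00001d026426, annotated as a transporter of the ABCB family, was the only one of 2 auxin transporters compared at 6 DAP that was past the fold, at 75.4 CPM against 25.1 CPM at 6 DAP and at 61.9, 56.7 and 52.4 CPM against 29.5, 31.3 and 26.6 CPM at 7 DAP. At 7 DAP, 2 of 7 transporters of the ABCB list were called higher and 3 lower (28.6% and 42.9%, median log2 −0.72, edgeR). In the PIN list 1 of 2 was called higher. Over all genes 5.04% were called higher and 7.55% lower.

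Aquaporins, which pass water through membranes, had 0 higher and 2 lower of 4 compared at 6 DAP (50% lower beside 7.85% over all genes). At 7 DAP edgeR called 1 of 10 higher and 4 lower (10% and 40%, beside 5.04% and 7.55% over all genes), with a median log2 of 0.22. Expansins and wall-loosening enzymes had 0 higher and 2 lower of 8 at 6 DAP (25% lower). At 7 DAP 2 of 11 were called higher (18.2% beside 5.04% over all genes) and 0 lower, with a median log2 of −0.41 (edgeR). EXPB7, a beta expansin, was among the genes lower at 6 DAP.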
